A study of Mus musculus with 9 samples.

Results

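The genes studied here encode the respiratory chain and the ATP synthase. They were taken by symbol, as protein-coding genes of the RefSeq table that start with Nduf (complex I), Sdh (Sdha to Sdhd and the Sdhaf factors, complex II), Uqcr (complex III), Cox4 to Cox8 (complex IV) or Atp5 (complex V). A peak counted as a member when its centre lay inside such a gene or within 1 kb of either of its ends. The rule gave 132 of the 75936 peaks, at 91 of 100 genes, and used no measured value. Complex I holds 71 of these peaks at 46 of 49 genes, complex II 13 at 8 of 8, complex III 12 at 8 of 8, complex IV 15 at 13 of 18, and complex V 21 at 16 of 17. No peak met the rule at Ndufa6, Ndufb4b, Ndufb4c, Cox6a2, Cox6b2, Cox7b2, Cox8b, Cox8c and Atp5g1. All 132 member peaks passed the filter on low values.

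Bulk ATAC-seq, which reads open chromatin by the insertions of a transposase, was done on the mouse breast carcinoma line D2A1-d. The groups are cells transduced with the hairpin shMed1 #2, cells transduced with the hairpin shMed1 #4, both labelled as a Med1 knockdown, and cells transduced with a non-targeting control hairpin (NTC), labelled as wild type, with 3 libraries each and no further treatment. Med1 is a subunit of Mediator, the complex that joins transcription factors bound at enhancers and promoters to RNA polymerase II. Replicates are labelled as biological, but no label says that they were grown apart, and p-values cover the spread between these libraries, part of which may be technical.

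The respiratory chain sits in the inner mitochondrial membrane. Complex I takes electrons from NADH and complex II from succinate, complex III passes them through cytochrome c to complex IV, which reduces oxygen, and complex V, the ATP synthase, makes ATP with the proton gradient that the chain builds. Most of the subunits are encoded in the nucleus and are expressed in nearly all cells, and their promoters are known for binding sites of NRF1, ETS factors such as GABP, YY1 and the oestrogen-related receptors.

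Reads in peaks ran from 34.8 to 53.7 M per library (M, 1000000 reads). Pearson correlations of log2 values were 0.988 to 0.991 between libraries of a group and 0.970 to 0.982 between groups. A hairpin acts on the transcript, so the Med1 promoter does not check the knockdown: the Med1 gene-end peak averaged 2023 ± 143 in shMed1 #2, 1971 ± 73.1 in shMed1 #4 and 2114 ± 41.3 in NTC (SD, n = 3 each; log2 difference of both hairpins -0.08 ± 0.04, limma adjusted p = 0.132). Of the epithelial markers Epcam, Krt8, Krt18, Krt5, Krt14 and Cdh1, only Krt18 and Krt14 had a peak at a gene end, with mean values of 168 and 120, while the mesenchymal genes Vim, Fn1, Twist1 and Zeb1 had means of 4492, 3215, 1703 and 234 and Cdh2 had no such peak. Of the blood markers reported here Spi1 and Itgam had means of 703 and 56.9 and Ptprc and Cd3e had no gene-end peak, and of the endothelial markers Cdh5 had a mean of 111 and Pecam1, Kdr and Tek had no gene-end peak.

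Member peaks were mostly promoters. The start of a gene is known for 82 of the 100 genes from the RefSeq promoter table. Of the 132 peaks, 78 lay within 1 kb of a known gene start, 8 at the other end of the gene, 15 at an end of a gene whose start is not in that table, and 31 in the body of a gene, where exons and introns were not told apart. In NTC the median value was 1429 at starts and 234 in gene bodies, and the median coefficient of variation among the 3 libraries was 4.00% and 6.90%. Values are normalized counts, that is, reads in a 501-base peak divided by a size factor for the library. Peaks of 48 members also lay within 1 kb of an end of another protein-coding gene, 32 of them at a start, and for these the signal of the pair cannot be told apart. Next to the 1 kb limit, the peak 975 bases outside Uqcr10 had a log2 fold change of 0.13 ± 0.05, and the nearest peak beyond the limit, 1463 bases from Ndufaf2, had -0.19 ± 0.11.

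The promoter sequences below show the start with the largest decrease in each complex, among starts with a peak centre within 250 bases, and the starts with the 3 largest increases. They come from RefSeq (GRCm38.p6), run 5′ to 3′ on the strand of the gene and hold 250 bases before the start and 50 after it. Capitals mark matches, on either strand, to the letters CGCANGCGC (NRF1), CCGGAAG (ETS), AANATGGCG (YY1), GGGCGG (SP) and TCAAGGTCA (ERR). The starts with a decrease were Ndufaf1, Sdhaf4, Uqcrc1, Cox7b and Atp5g3.
Ndufaf1: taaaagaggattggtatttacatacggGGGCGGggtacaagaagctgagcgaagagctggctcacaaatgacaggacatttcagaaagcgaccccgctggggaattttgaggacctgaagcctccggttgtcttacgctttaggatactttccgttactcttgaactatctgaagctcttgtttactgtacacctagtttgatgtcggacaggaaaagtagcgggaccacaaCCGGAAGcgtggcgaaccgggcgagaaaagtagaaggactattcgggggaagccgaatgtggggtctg
Sdhaf4: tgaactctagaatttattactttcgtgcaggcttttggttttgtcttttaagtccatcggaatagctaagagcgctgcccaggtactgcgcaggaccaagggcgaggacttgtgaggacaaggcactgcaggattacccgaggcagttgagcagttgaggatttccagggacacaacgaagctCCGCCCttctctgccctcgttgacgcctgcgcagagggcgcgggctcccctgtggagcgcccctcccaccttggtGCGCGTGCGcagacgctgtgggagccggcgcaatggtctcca
Uqcrc1: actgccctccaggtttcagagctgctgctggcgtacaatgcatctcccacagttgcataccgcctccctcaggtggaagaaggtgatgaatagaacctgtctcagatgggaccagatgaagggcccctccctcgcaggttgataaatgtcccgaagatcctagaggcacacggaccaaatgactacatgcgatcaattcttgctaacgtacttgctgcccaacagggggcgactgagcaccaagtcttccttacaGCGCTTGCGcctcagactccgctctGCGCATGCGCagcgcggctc
Cox7b: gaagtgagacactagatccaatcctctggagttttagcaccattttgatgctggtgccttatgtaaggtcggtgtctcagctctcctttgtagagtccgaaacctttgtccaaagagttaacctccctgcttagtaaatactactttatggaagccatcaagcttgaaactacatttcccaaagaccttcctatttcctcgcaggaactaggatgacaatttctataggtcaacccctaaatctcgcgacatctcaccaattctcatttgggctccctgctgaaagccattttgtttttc
Atp5g3: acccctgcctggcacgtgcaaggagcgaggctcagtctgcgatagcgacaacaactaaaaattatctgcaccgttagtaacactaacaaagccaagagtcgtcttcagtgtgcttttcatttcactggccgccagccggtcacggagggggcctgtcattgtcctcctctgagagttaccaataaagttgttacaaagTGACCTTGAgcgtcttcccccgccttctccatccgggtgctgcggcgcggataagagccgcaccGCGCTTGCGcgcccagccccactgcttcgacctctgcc
The starts with an increase were Ndufb11, Ndufs8 and Sdhaf1.
Ndufb11: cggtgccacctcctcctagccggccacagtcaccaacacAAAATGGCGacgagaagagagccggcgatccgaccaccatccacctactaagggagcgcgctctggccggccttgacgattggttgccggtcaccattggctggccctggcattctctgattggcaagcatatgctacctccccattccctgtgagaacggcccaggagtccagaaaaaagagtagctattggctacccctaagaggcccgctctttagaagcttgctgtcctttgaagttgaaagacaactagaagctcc
Ndufs8: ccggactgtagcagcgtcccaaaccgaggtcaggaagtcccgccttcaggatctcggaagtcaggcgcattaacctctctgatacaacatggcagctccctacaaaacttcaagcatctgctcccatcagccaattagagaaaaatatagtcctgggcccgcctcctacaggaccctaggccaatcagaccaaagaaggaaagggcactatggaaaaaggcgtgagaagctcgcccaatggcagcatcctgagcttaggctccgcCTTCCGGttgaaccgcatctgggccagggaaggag
Sdhaf1: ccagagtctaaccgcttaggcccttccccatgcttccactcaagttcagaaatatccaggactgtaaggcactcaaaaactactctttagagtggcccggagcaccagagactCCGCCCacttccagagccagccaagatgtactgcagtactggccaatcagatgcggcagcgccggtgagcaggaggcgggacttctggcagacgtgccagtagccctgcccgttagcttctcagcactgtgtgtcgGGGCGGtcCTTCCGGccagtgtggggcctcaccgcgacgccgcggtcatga
The windows are Ndufaf1 at chr2:119662785-119663084 (minus strand), Sdhaf4 at chr1:24005591-24005890 (minus), Uqcrc1 at chr9:108936398-108936697 (plus), Cox7b at chrX:106015450-106015749 (plus), Atp5g3 at chr2:73911277-73911576 (minus), Ndufb11 at chrX:20617570-20617869 (minus), Ndufs8 at chr19:3912725-3913024 (minus) and Sdhaf1 at chr7:30322326-30322625 (minus). From 237 to 300 bases of each window lie in the member peak.

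The letters of 4 of the 5 motifs stood in a higher share of these start windows than of promoters at large, given here as a description with no test. Of 76 start windows, 32.9% held the NRF1 letters, against 14.4% of the 8830 windows of all genes with a peak at the start and 8.69% of all 21045 promoters. The ETS letters stood in 28.9%, against 18.4% and 11.7%, and the YY1 letters in 14.5%, against 5.31% and 3.14%. The SP letters stood in 46.1%, against 67.2% and 46.7%, and the ERR letters stood in 2.63%, the windows of Atp5g3 and Sdhd, against 0.204% and 0.337%. Matches of the ETS and SP letters overlapped in 1 window, and no other pair did. Among the 25 starts with the NRF1 letters 13 were called lower with both hairpins, as were 23 of the 51 without them. For the YY1 letters the counts were 7 of 11 and 29 of 65, and for the ERR letters 1 of 2 and 35 of 74. The ETS and SP letters went the other way, with 8 of 22 against 28 of 54 and 14 of 35 against 22 of 41. Of all gene starts 35.0% were called lower, and differences by motif were not tested. In the windows printed above, Uqcrc1 held the NRF1 letters at 2 places near its start, Cox7b held no match, and Ndufs8 held no match but the ETS letters.

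Open chromatin fell at many of these promoters in the Med1 knockdown cells. With both hairpins against NTC, 50 of the 132 peaks fell and 11 rose at an adjusted p under 0.05 (limma with Benjamini-Hochberg adjustment over all 75930 peaks tested), where 17.7% of all peaks fell and 22.1% rose. The fitting comparison for promoters is narrower: 37 of the 78 start peaks (47.4%) fell and 4 rose (5.13%), while 35.0% of the 9244 start peaks of all genes fell and 14.7% rose. The median log2 fold change was -0.13 at the start peaks, -0.07 at all gene starts and -0.01 over all peaks. In the gene bodies 3 of 31 peaks fell and 5 rose, against 13.3% and 24.6% of all gene-body peaks. Counted by gene, 44 had peaks that fell only, 6 had peaks that rose only, 3 had both, and 38 had no call.

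**Figure D1:**
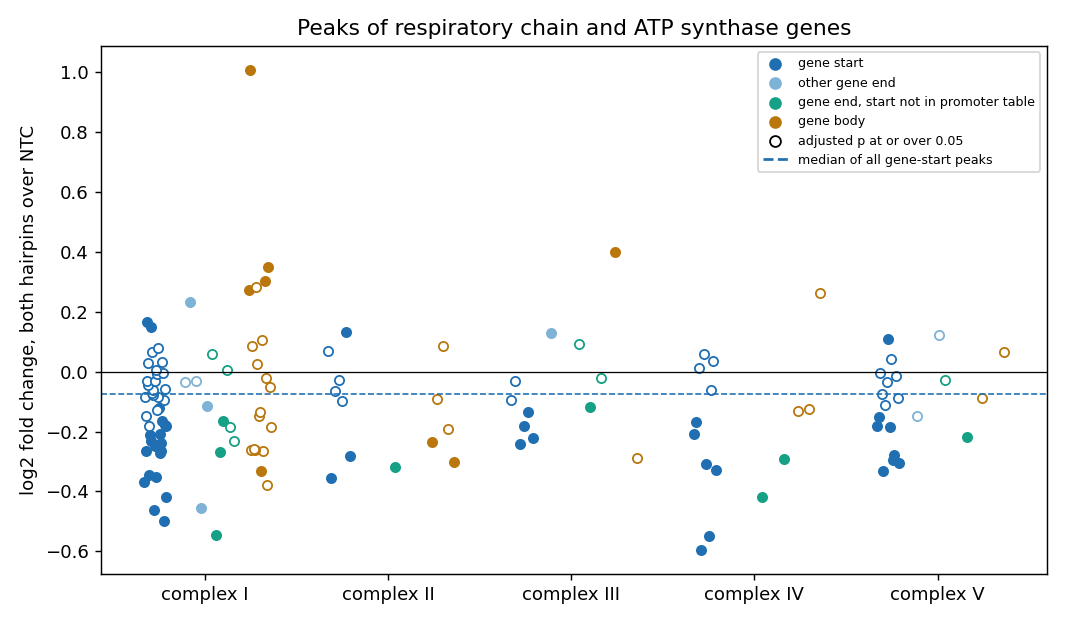
Log2 fold change of both hairpins over NTC for the 132 member peaks, by complex and by place in the gene; filled points have an adjusted p under 0.05, and the dashed line is the median of all gene-start peaks at -0.07. Most start peaks lie below 0, complex IV has no called increase, and the highest point, at 1.01, is a peak in the body of Ndufa10.

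The number of calls changed with the scaling. The hairpin libraries had higher totals of deposited normalized counts, 43.1 to 44.2 M against 41.2 to 41.5 M in NTC. With equal totals in every library 74 member peaks fell and 4 rose, so that the share of increases among the calls was 5.13% in place of 18%. With quantile scaling the counts were 74 and 7, and with cyclic loess scaling 76 and 7, while 27.7%, 20.0% and 18.6% of all peaks fell under the 3 scalings in the same order. Of the 78 member starts 56, 58 and 61 fell (71.8%, 74.4% and 78.2%) and none rose, against decreases at 53.6%, 54.2% and 53.4% of all gene starts. Of the 71 member peaks with no call, 17 were called lower under all 3 scalings. Leaving out single libraries cost 19 of the 50 decreases and 6 of the 11 increases their call at least once. Of the 50 decreases 48 kept their call under all 3 scalings, the exceptions being Cox7a1 and the peak at the other end of Ndufa4. Of the 11 increases 4 did, and all of these lie in gene bodies: Ndufa10, Uqcrc1 and 2 peaks of Ndufaf2. None of the 4 start peaks called higher, at Ndufb11, Ndufs8, Sdhaf1 and Atp5j, kept its call under any of these 3 scalings.

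Complexes I to V had 40, 7, 6, 10 and 15 start peaks. With both hairpins 45%, 28.6%, 66.7%, 60% and 46.7% of these fell, against 35.0% of all gene starts. Differences between these small sets were not tested. Within complex I, 24 of 71 peaks fell and 7 rose. The core subunits, which carry the flavin and the iron-sulphur clusters, had 3 decreases and 1 increase among 11 peaks, the other subunits 18 and 4 among 41, and the assembly factors 3 and 2 among 16. Such counts over the peaks of a complex or subgroup, here and below, mix start, other-end and body peaks. Of all peaks 17.7% fell and 22.1% rose, and of all gene starts 35.0% fell and 14.7% rose. Ndufs1, the large iron-sulphur subunit, had the largest decrease: its gene-end peak at chr1:63176773-63177274 held 974, 712 and 691 in shMed1 #2 and 905, 836 and 858 in shMed1 #4, against 1089.6, 1201 and 1327 in NTC. All 6 hairpin libraries lay below all 3 NTC libraries (-0.55 ± 0.07, limma adjusted p = 1.13e-08). Peaks named as the largest changes of a complex, here and below, had to show such a separation, so it is no added support. The share of all peaks so separated is not given here. The Ndufs1 peak is shared with an end of Eef1b2, a translation elongation factor gene. Ndufaf1, an assembly factor of the membrane arm, held 579, 488 and 481 in shMed1 #2 and 466, 541 and 539 in shMed1 #4 at its start, against 723, 766 and 693 in NTC. The hairpins gave the same decrease there, -0.50 ± 0.08 each, and no other protein-coding gene ends within 1 kb.

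Ndufa9 and Ndufb8 are accessory subunits, Ndufa9 near the junction of the arms and Ndufb8 in the membrane arm. The start of Ndufa9 held 242, 189 and 195 in shMed1 #2 and 218, 269 and 236 in shMed1 #4, against 304, 285 and 335 in NTC (-0.46 ± 0.10, adjusted p = 0.000165). At the start of Ndufb8 the values were 586, 514 and 502 in shMed1 #2 and 572, 616 and 521 in shMed1 #4, against 723, 689 and 799 in NTC (-0.42 ± 0.07, adjusted p = 2.85e-06). As the naming rule required, neither peak had a hairpin library that reached the lowest NTC library. Starts of further accessory subunits fell by less: Ndufa7 by 0.37, Ndufc1 by 0.34, Ndufs4 by 0.35 and Ndufa13 by 0.26 on the log2 scale.

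Not all complex I promoters were called. Ndufv1, Ndufv2 and Ndufs7, core subunits like Ndufs1, had log2 fold changes of 0.03, 0.03 and -0.17, of which Ndufs7 alone was called (adjusted p = 0.00457; 0.0632 without NTC replicate 2). Ndufv1 and Ndufv2 were called lower with quantile scaling (-0.10 and -0.12) and cyclic loess scaling (-0.091 each), and Ndufv1 was called higher with shMed1 #4 alone (0.11 ± 0.04, adjusted p = 0.0403). Ndufs8, a further iron-sulphur core subunit with the strongest member peak, held 3505, 3529 and 3667 in shMed1 #2 and 4093, 3954 and 3884 in shMed1 #4, against 3402, 3402 and 3384 in NTC. It was called higher (0.15 ± 0.03, adjusted p = 0.000521), but the value was 0.07 with equal totals (adjusted p = 0.0773), -0.02 with quantile scaling and 0.02 with cyclic loess scaling (adjusted p = 0.732), and the peak is shared with an end of Aldh3b1. The start of Ndufb11, an X-linked accessory subunit that neighbours Rbm10, was called higher (0.17 ± 0.05, adjusted p = 0.0139; 0.147 without NTC replicate 3), with 1060.4, 1028 and 1093 in shMed1 #2, 1270.1, 1135 and 1119 in shMed1 #4 and 1008, 1043 and 936 in NTC, so that the shMed1 #2 libraries overlapped NTC. With shMed1 #4 alone this peak kept its increase (0.24 ± 0.06) under each of the 19 alternative fits.

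Complex II, which is also the succinate dehydrogenase of the citric acid cycle, had 5 decreases and 1 increase among 13 peaks. Sdhaf4, which helps the flavin-bearing subunit Sdha into the complex, held 291, 238 and 221 in shMed1 #2 and 306, 310.3 and 302 in shMed1 #4 at its start, against 337, 369 and 353 in NTC (-0.35 ± 0.09, adjusted p = 0.0012). The 3 groups did not overlap, with shMed1 #2 lowest, a separation that the naming rules required. Both peaks of Sdha fell, its start by 0.28 and a peak in its body by 0.30, and the body call was lost without NTC replicate 1 (adjusted p = 0.146) and without NTC replicate 3 (0.052).

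Sdhb, the iron-sulphur subunit, and Sdhd, a membrane anchor, had start values of 0.07 and -0.06 on the log2 scale and were not called, but Sdhd was called lower under the 3 other scalings (-0.15 to -0.12, adjusted p = 0.012 to 0.0362). Sdhaf1, which serves the iron-sulphur clusters of Sdhb, was called higher at 0.13 ± 0.05 (adjusted p = 0.0159), with 1739.5, 1779 and 1719 in shMed1 #2 and 1846, 1954 and 1784 in shMed1 #4, against 1693, 1583 and 1656 in NTC. The hairpin libraries lay above NTC, as the naming rule required. The call was lost under the 3 other scalings (0.04 to 0.07, limma adjusted p = 0.198 to 0.504), without shMed1 #4 replicate 2 (adjusted p = 0.0545) and without NTC replicate 2 (0.136).

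Complex III had 5 decreases and 2 increases among 12 peaks, and its decreases were small. The start of Uqcrc1, a core protein, held 829, 734 and 737 in shMed1 #2 and 883, 889.6 and 835 in shMed1 #4, against 930.2, 936 and 986 in NTC (-0.22 ± 0.06, adjusted p = 0.0021). Hairpin libraries were all below NTC, again by the naming rule. Uqcr11 and Uqcrq, small subunits, fell by 0.13 and 0.12, at adjusted p-values of 0.035 and 0.0323, and left the threshold when single libraries were omitted: 6 of the 9 for Uqcr11 (adjusted p up to 0.114) and 4 for Uqcrq (up to 0.221). The start peaks of Uqcrh, which joins cytochrome c to complex III, fell by 0.24 and 0.18, and the call of the peak at -0.24 was lost without shMed1 #2 replicate 2, shMed1 #4 replicate 2 or 3 or NTC replicate 3 (adjusted p up to 0.191). Uqcrfs1, the Rieske iron-sulphur protein, Uqcrc2, the other core protein, and Uqcrb had log2 fold changes of -0.09, -0.02 and 0.09, and none was called; Uqcrfs1 was called lower, at -0.17, under quantile scaling (adjusted p = 0.038) and equal totals (adjusted p = 0.0326).

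Complex IV, cytochrome c oxidase, had the largest single decrease and no increase: 8 of its 15 peaks fell. Cox7b, a small X-linked subunit, held 369.9, 339.8 and 293 in shMed1 #2 and 364, 370.4 and 368 in shMed1 #4 at its start (chrX:106015513-106016014), against 474, 548 and 568 in NTC. The groups were 334 ± 38.7, 367 ± 3.46 and 530.1 ± 49.9 on average in the same order (SD, n = 3 each), a change of -33.8% with both hairpins (-0.59 ± 0.08, adjusted p = 3.91e-08). This was the lowest log2 fold change of the 132 peaks. Cox6b1, which faces the intermembrane space, held 179, 184 and 152 in shMed1 #2 and 225, 206 and 171 in shMed1 #4, against 245, 272 and 299 in NTC (-0.55 ± 0.11, adjusted p = 3.3e-05). Its start is among the weaker member promoters, and no library of either hairpin reached NTC, as the naming rule required.

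The gene-end peak of Cox6c held 424, 403 and 353 in shMed1 #2 and 329.8, 374 and 319 in shMed1 #4, against 454, 509 and 505 in NTC (-0.42 ± 0.08, adjusted p = 3.14e-05). Cox6a1, the widely expressed form of its subunit, fell by 0.33 at its start, Cox4i1 by 0.29, Cox5a by 0.21 and Cox7a2l, a factor of supercomplexes, by 0.17. The decreases at Cox7b, Cox6b1, Cox6c and Cox6a1 were called under each of the 19 alternative fits. By contrast the starts of Cox5b, Cox7a2, Cox7c and Cox8a lay at -0.06, 0.06, 0.03 and 0.01 and were not called. Cox5b was called lower under the 3 other scalings (-0.14 to -0.12, adjusted p = 0.0142 to 0.0386), and Cox7a2 and Cox7c turned to negative values there without a call. Cox8a held 2954, 3031 and 3072 in shMed1 #2 and 3180.3, 3114 and 2988 in shMed1 #4, against 3045, 2984 and 3050.3 in NTC, and its groups overlapped; under quantile and cyclic loess scaling its value was -0.13 and -0.11 and was called.

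Complex V had 8 decreases and 1 increase among 21 peaks. In the catalytic F1 head 3 of 9 peaks fell (33.3%) and none rose, near the 35.0% of all gene starts that fell. Of all peaks 17.7% fell. Atp5b, the catalytic beta subunit, held 2179.7, 1935 and 1864 in shMed1 #2 and 2068, 2043 and 2002 in shMed1 #4 at its start, against 2408, 2563 and 2495 in NTC. As the naming rule required, no hairpin library reached NTC there (-0.31 ± 0.04, limma adjusted p = 1.74e-07). Atp5a1 (alpha) and Atp5c1 (gamma) fell by 0.22 and 0.18, the call of Atp5a1 being lost without NTC replicate 3 (adjusted p = 0.0537). Atp5d (delta), with 3 peaks, and Atp5e (epsilon) were not called, but all 3 peaks of Atp5d were called lower under the 3 other scalings (-0.23 to -0.15).

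Of the c-ring genes Atp5g3 fell, at 958, 724 and 736 in shMed1 #2 and 851, 798 and 759 in shMed1 #4, against 940.1, 1012 and 1077 in NTC (-0.33 ± 0.07, adjusted p = 7.22e-05). The libraries overlapped there, since shMed1 #2 replicate 1 lay above the lowest NTC library. Atp5g2, which encodes the same mature ring subunit, held 2839, 2738 and 2744 in shMed1 #2 and 2903, 3000.4 and 2642 in shMed1 #4, against 2713, 2876 and 2869 in NTC (-0.0049 ± 0.04; called at -0.14 with quantile scaling and -0.12 with cyclic loess scaling). In the stalk and membrane part, Atp5pb (subunit b) fell by 0.28, Atp5l (subunit g) by 0.29, Atp5o (the oligomycin sensitivity protein) by 0.15 and Atp5j2 (subunit f) by 0.19; the call of Atp5o was lost in 6 of the 9 fits without a single library (adjusted p up to 0.154), and that of Atp5j2 without NTC replicate 2 (adjusted p = 0.0592) or NTC replicate 3 (0.106). The 1 increase, 0.11 at Atp5j, stands at a promoter shared with Gabpa, which encodes an ETS factor, and was lost under the 3 other scalings (-0.01 to 0.03) and without shMed1 #4 replicate 1, NTC replicate 2 or NTC replicate 3 (adjusted p up to 0.244).

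**Figure D2:**
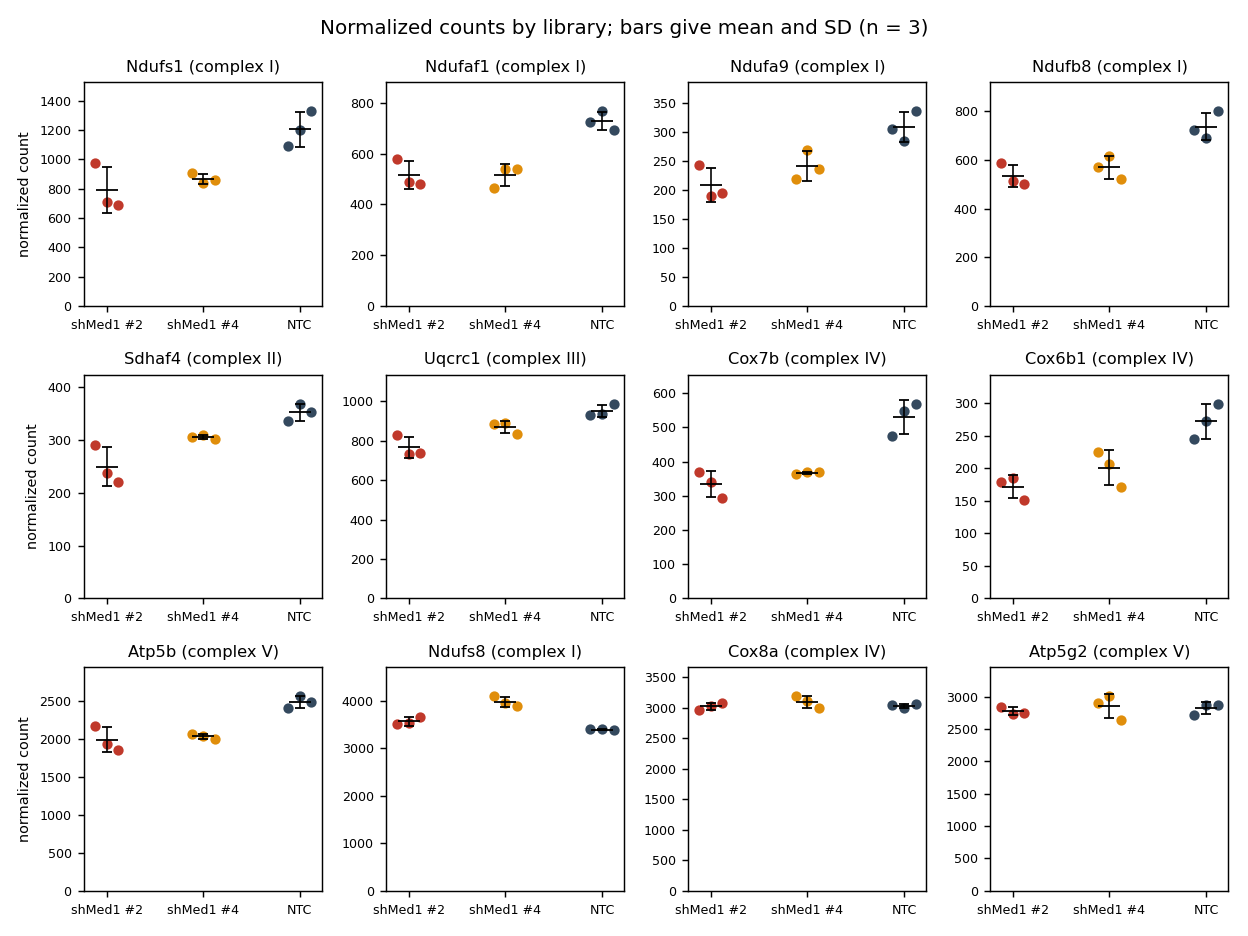
Normalized counts of 12 gene-end peaks in each library (points) with mean and SD (bars), for shMed1 #2, shMed1 #4 and NTC. In the first 9 panels all hairpin libraries lie below NTC, as at Cox7b with means of 334, 367 and 530. The selection of these 9 peaks required that separation. Ndufs8, Cox8a and Atp5g2, among the strongest member peaks, show no decrease in these values.

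The number of promoter peaks called lower differed by the strength of the peak, and in the strongest band it changed with the scaling. Split by the mean value over the 9 libraries, 7 of the 8 start peaks under 500 fell, 16 of 20 from 500 to 1000, 12 of 34 from 1000 to 2000, and 2 of 16 at 2000 and over. The corresponding shares of all gene starts were 28.2%, 49.6%, 42.1% and 19.4%. The band under 500 is bounded below only by the filter at a mean of 10. Member starts and all gene starts were not matched for strength within a band. The shares of member starts were 87.5% and 80.0% in the lower bands and 35.3% and 12.5% in the upper ones; these differences were not tested. With equal totals, quantile and cyclic loess scaling, 5, 11 and 10 of the 16 strongest starts fell in place of 2 (31.2%, 68.8% and 62.5%, against 38.1%, 55.0% and 50.5% of all starts of that band). From 1000 to 2000, 23, 21 and 26 of the 34 fell (67.65%, 61.76% and 76.47%, against 64.47%, 61.1% and 65.87% of all starts of that band). Under 500, 6 to 8 of 8 fell, against 26.3% to 39.5% of all starts of that band. From 500 to 1000, 19 to 20 of 20 fell, against 61.6% to 68.1%. Across 76 genes, the log2 mean and the log2 fold change of the start peak had a Spearman rho of 0.69, against 0.33 over 8830 gene starts, and under the other scalings 0.56 to 0.69, against 0.11 to 0.33; the points share their libraries, and weaker peaks rest on fewer reads. The GC content of the start windows, 58.7% at the median against 61.7% over all gene starts, had a rho of 0.21 with the log2 fold change.

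**Figure D3:**
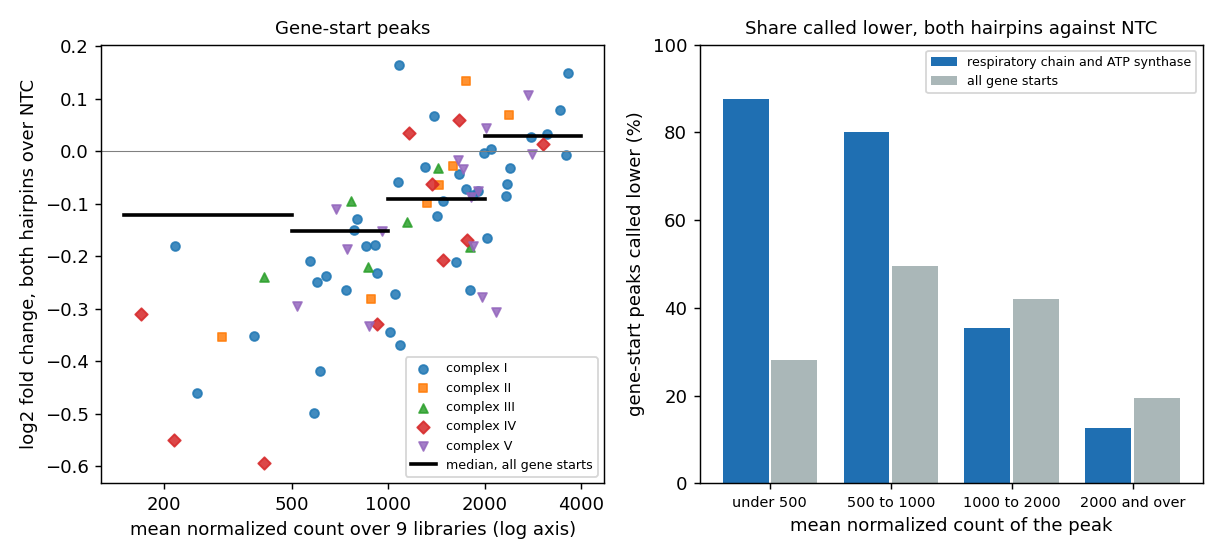
Left, mean normalized count (log axis) and log2 fold change of both hairpins over NTC for the 78 member start peaks, with the median of all gene starts per band as bars; right, the percentage of start peaks called lower in each band. Of member starts under 1000, 87.5% and 80.0% were called lower in the 2 bands, against 28.2% and 49.6% of all gene starts, with strength not matched within a band. The 12.5% at 2000 and over was 31.2% to 68.8% under the other scalings.

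Start peaks were also split by whether an end of another gene lies near. Of 46 starts with no other gene end within 1 kb 27 fell and 1 rose, with a median log2 fold change of -0.17, and of 32 shared starts 10 fell and 3 rose, with a median of -0.05. Under the other scalings 38 to 40 of the unshared and 18 to 22 of the shared starts fell. Of all gene starts, shared or not, 53.4% to 54.2% fell there, and their shares by class are not given here. Over all genes 34.7% of unshared and 37.1% of shared starts were called lower. The shared member starts were also stronger, with a median value of 1656 against 1059, and neither the difference between these classes nor the part of peak strength in it was tested.

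Peaks were called in both directions in 3 genes, Ndufa10, Ndufs4 and Uqcrc1, lower at the start and higher in the body. Most genes with peaks in both places had no such pair of calls. Ndufa10, an accessory subunit of complex I, had 4 peaks. Its start fell by 0.18 (adjusted p = 0.0127; 0.109 without NTC replicate 3). A peak 25229 bases downstream, at chr1:92448279-92448780, held 635, 742 and 835 in shMed1 #2 and 357, 383 and 435 in shMed1 #4, against 247, 283 and 267 in NTC. All 3 groups were apart, as the naming rules required. The peak rose 2.75-fold with shMed1 #2 (1.46 ± 0.09, limma adjusted p = 1.54e-17) and 1.47-fold with shMed1 #4 (0.56 ± 0.09, adjusted p = 7.97e-06). At the far end of the gene a peak held 324, 411 and 382 in shMed1 #2 and 233, 236 and 267 in shMed1 #4, against 262, 258 and 248 in NTC, so that it rose with shMed1 #2 (0.53 ± 0.10) and overlapped NTC with shMed1 #4 (-0.06 ± 0.10), a difference between the hairpins that was itself called (-0.60 ± 0.10, adjusted p = 1.79e-05). The fourth, weak peak, with means of 73.3, 67.0 and 83.2 in shMed1 #2, shMed1 #4 and NTC, was not called.

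Ndufaf2, an assembly factor of complex I, had 6 peaks, the largest number of any member gene. Its start, shared with Ercc8, had a log2 fold change of -0.04 ± 0.05 and was not called (called at -0.12 with equal totals and -0.14 with cyclic loess scaling). A cluster of 3 peaks stood 59697 to 62795 bases downstream. The peak at chr13:108097013-108097514 held 296, 351 and 346 in shMed1 #2 and 311, 300.3 and 342 in shMed1 #4, against 261, 268 and 233 in NTC (0.35 ± 0.09, adjusted p = 0.00121). Its neighbour rose by 0.27, and the third peak rose with shMed1 #4 (0.41 ± 0.15, adjusted p = 0.0347) but lost that call with equal totals (adjusted p = 0.0782) and without shMed1 #4 replicate 1 (0.22), NTC replicate 2 (0.178) or NTC replicate 3 (0.0871). The remaining pair, 5481 and 6612 bases from the start, had negative values that were not called.

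Ndufs4, an accessory subunit of the NADH-oxidizing arm, held 427, 341 and 311 in shMed1 #2 and 354, 330.3 and 333 in shMed1 #4 at its start, against 421, 443 and 469 in NTC; shMed1 #2 replicate 1 overlapped NTC, and the decrease was called (-0.35 ± 0.08, adjusted p = 0.000689). A peak 25811 bases downstream rose by 0.30 (adjusted p = 0.0182), with overlapping libraries, and lost its call with equal totals and without shMed1 #2 replicate 2, NTC replicate 2 or NTC replicate 3 (adjusted p up to 0.248). In Uqcrc1 a peak 11226 bases downstream held 836, 808 and 902 in shMed1 #2 and 496, 549 and 619.8 in shMed1 #4, against 546, 509.7 and 501 in NTC. It rose with shMed1 #2 (0.71 ± 0.08, adjusted p = 2.5e-10), while shMed1 #4 overlapped NTC (0.09 ± 0.08).

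**Figure D4:**
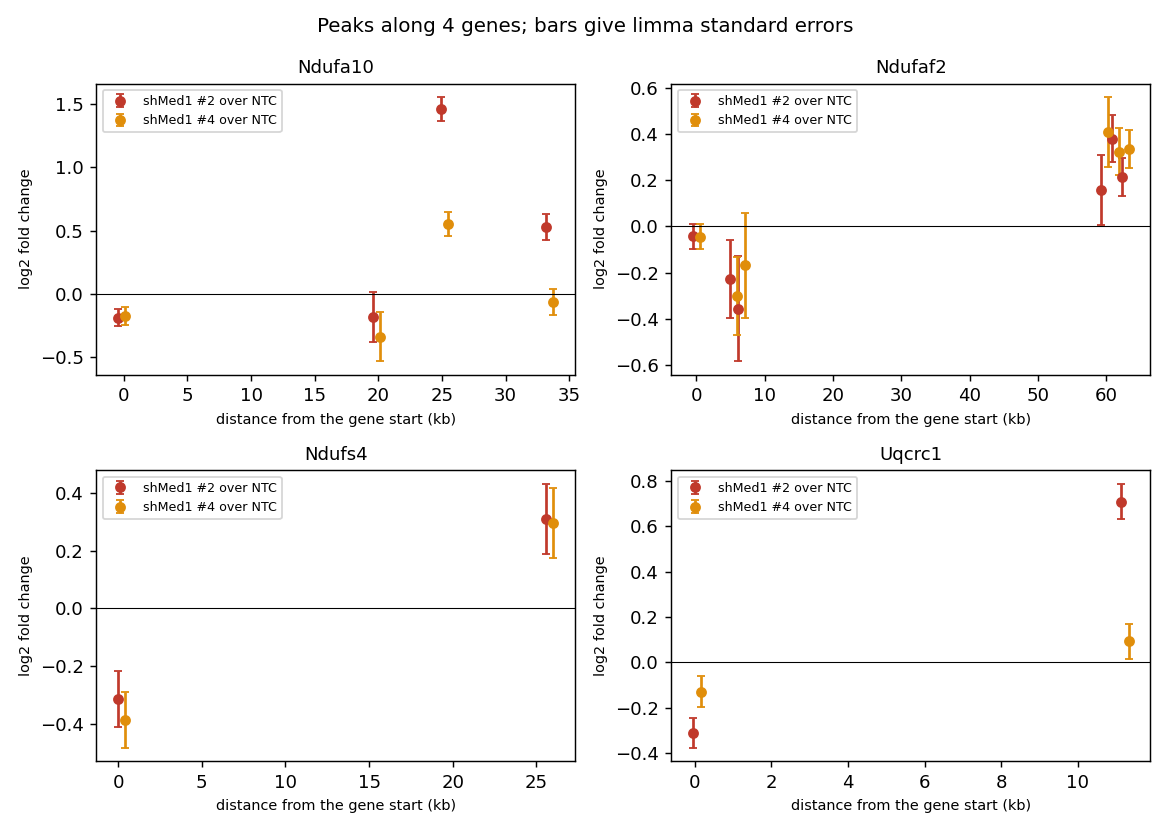
Log2 fold change over NTC with standard error for each peak of Ndufa10, Ndufaf2, Ndufs4 and Uqcrc1, by distance from the gene start in kb, for shMed1 #2 and shMed1 #4 (points offset sideways). The start peaks lie below 0, and a distal peak of each gene lies above it with shMed1 #2, highest in Ndufa10 at 1.46.

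Taken hairpin by hairpin, shMed1 #2 gave 49 decreases and 9 increases among the 132 peaks, where 19.5% and 23.6% of all peaks were called. At the starts it gave 38 decreases and no increase, against 38.6% and 11.6% of all gene starts. shMed1 #4 gave 35 decreases and 11 increases, where 12.1% and 17.3% of all peaks were called, and 24 and 6 at the starts, against 23.9% and 15.4% of all gene starts. By complex I to V the decreases numbered 24, 5, 3, 8 and 9 with shMed1 #2, or 33.8%, 38.5%, 25%, 53.3% and 42.9% of the peaks. With shMed1 #4 they numbered 18, 4, 3, 5 and 5, or 25.4%, 30.8%, 25%, 33.3% and 23.8%. The complexes differ in their mix of start and body peaks. The comparisons share the NTC libraries. Of the peaks that fell, 30 were called with each hairpin, which is 61.2% of those of shMed1 #2 and 85.7% of those of shMed1 #4. With each hairpin 3 rose, and none was called in opposite directions. The matching overlap over all peaks is not given here, so this overlap cannot be read as particular to these genes. The increases with shMed1 #4 numbered 6 without its replicate 1, 7 without its replicate 2, 6 without NTC replicate 2 and 5 without NTC replicate 3, and those with both hairpins 7 without NTC replicate 2 and 6 without NTC replicate 3.

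The hairpins differed from each other at 18 member peaks. With shMed1 #4 against shMed1 #2, 12 peaks were higher and 6 lower, where 8.48% and 13.0% of all peaks were called. All 10 called start peaks were higher with shMed1 #4. They are 12.8% of the 78 member starts, near the share of all gene starts, of which 13.1% were higher and 2.33% lower. The heart and muscle isoform Cox7a1 had the largest such difference: 164, 193 and 198 in shMed1 #4 and 129, 136 and 117 in shMed1 #2 (0.53 ± 0.14, adjusted p = 0.00372), beside 155, 181 and 245 in NTC. Its shMed1 #4 libraries lay within the range of NTC. At Sdhaf4, given above, the difference was 0.30 ± 0.10 (adjusted p = 0.0284), and the call was lost without shMed1 #2 replicate 2 or 3 or any 1 shMed1 #4 library (adjusted p = 0.0536 to 0.182).

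The 6 peaks lower with shMed1 #4 lay in gene bodies or at the far end of a gene. Besides the Ndufa10 body peak (-0.91 ± 0.09) and the Uqcrc1 body peak (-0.62 ± 0.08), they included the 1 peak of Cox4i2, the lung isoform of subunit IV, which is shared with an end of Bcl2l1. It held 62.5, 67.6 and 81.2 in shMed1 #4 and 112, 113 and 135 in shMed1 #2 (-0.76 ± 0.18, adjusted p = 0.00111), beside 77.0, 67.3 and 84.8 in NTC, and rose with shMed1 #2 over NTC (0.65 ± 0.18, adjusted p = 0.00295). Ndufa4 is a subunit placed in complex I by its symbol and found in complex IV. The peak at its far end was not called between the hairpins (-0.41 ± 0.19, limma adjusted p = 0.109). With shMed1 #4 over NTC this Ndufa4 peak fell by -0.66 ± 0.19 (adjusted p = 0.00554). That call was lost without shMed1 #4 replicate 1 (adjusted p = 0.0699) and without NTC replicate 3 (0.0633). The count of 12 peaks higher with shMed1 #4 went to 21 without shMed1 #2 replicate 1, 4 without shMed1 #2 replicate 2, and 5 without shMed1 #4 replicate 1 or 2.

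**Figure D5:**
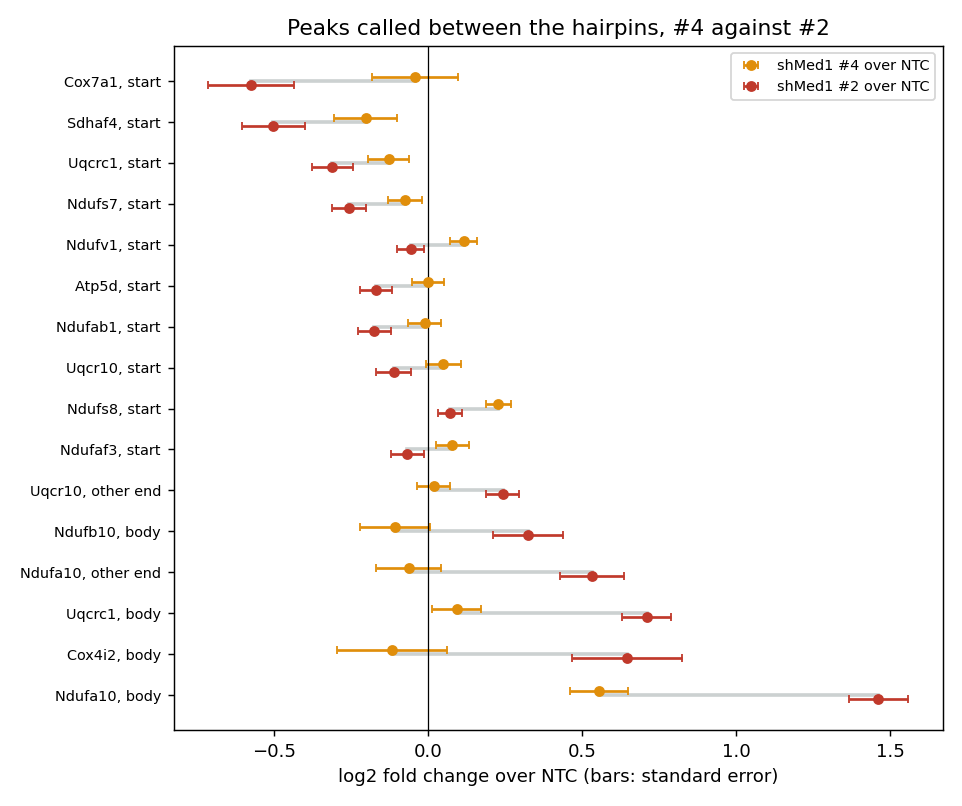
Log2 fold change over NTC with standard error, for shMed1 #4 and shMed1 #2, at 16 of the 18 member peaks called between the hairpins, the 10 start peaks and the 6 peaks lower with shMed1 #4. The 10 start peaks lie lower with shMed1 #2, and at the 6 lowest rows, all body or far-end peaks, shMed1 #2 lies above shMed1 #4. The 10 are 12.8% of member starts, near the 13.1% of all gene starts called higher with shMed1 #4.

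Genes of the same pathway that the symbols leave out had calls in both directions. So did all peaks, of which 22.1% rose and 17.7% fell, and all gene starts, of which 14.7% rose and 35.0% fell. Differences from these shares were not tested. Among 59 peaks of 20 genes for electron carriers, ubiquinone synthesis and further subunits 11 rose and 11 fell, among 77 peaks of 37 further assembly factors 10 rose and 15 fell, and among 51 peaks of 12 regulators 8 rose and 11 fell, against 22.1% and 17.7% of all peaks. Coq10a, a ubiquinone-binding protein, rose at its start by 0.41 ± 0.04, with 3655 ± 96.8 in shMed1 #2, 3708 ± 22.5 in shMed1 #4 and 2781.5 ± 197 in NTC. Etfdh, which passes electrons from fat oxidation to ubiquinone, rose by 0.27 ± 0.03 at its start, but by 0.02 with quantile scaling (adjusted p = 0.596). The starts of Pdss2 and Coq7, enzymes of ubiquinone synthesis, fell by 0.30 and 0.28. Uqcc2, an assembly factor of complex III, fell by 0.42 at its start and rose by 0.37 in its body, Cox16 rose by 0.46 in its body, and Cox11, which serves the copper site of complex IV, fell by 0.30 at its start.

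Among regulators the starts of Yy1 and Nrf1 fell, as did 35.0% of all gene starts. The letters of these factors stood in 14.5% and 32.9% of the 76 member start windows. A link between these genes and the member peaks was not tested. Yy1 held 1635, 1360 and 1374 in shMed1 #2 and 1499.5, 1451 and 1589 in shMed1 #4, against 1807, 2009 and 1833 in NTC (-0.34 ± 0.05). Nrf1 held 1154, 1064 and 1054 in shMed1 #2 and 1150.2, 1189 and 1191 in shMed1 #4, against 1249, 1376 and 1476 in NTC (-0.27 ± 0.05). In both genes every hairpin library lay below every NTC library. Both peaks were picked by the smallest adjusted p in their list, so this separation is no added support. The share of all peaks so separated is not given here. A peak in the body of Ppargc1b, a coactivator of mitochondrial genes, rose by 0.42 ± 0.08. The start of Tfb1m, a mitochondrial rRNA methyltransferase, was called higher at 0.13 ± 0.04, and lost the call under the 3 other scalings (0.01 to 0.05) and without NTC replicate 3 (adjusted p = 0.0588).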

How the data were processed

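ATAC-seq was measured in 9 libraries, 3 each of shMed1 #2, shMed1 #4 and NTC. Per the submitters' processing notes, Trim Galore, BWA, MACS2, featureCounts and Subread were used with mm10 (GRCm38). Versions, treatment of duplicate and mitochondrial reads, how peaks were merged and any transposase offset were not given in the sources used here. Coordinates stand as the deposited table gives them; whether it counts from 0 or 1 is not stated.

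The deposited signal is, by the authors' name for it, a DESeq2-normalized count per peak. All values were whole multiples of 1 step per library within 0.01, so size factors (0.799 to 1.22) and reads in peaks could be worked out; no peak with 1 read checked that step, and no count model was run. Log2 of the value plus 1 was fitted with limma 3.58.1 (R 4.3.3), with trend, for the 75930 peaks with a mean of at least 10, with 1 mean per group. Contrasts were each hairpin against NTC, the mean of both against NTC, and shMed1 #4 against shMed1 #2; p-values are two-sided, adjusted by Benjamini-Hochberg over all peaks, with a threshold of 0.05. Errors of fold changes are limma standard errors, and fold changes are on the log2(value + 1) scale. The fit was tested on simulated data. Python 3.11.15, pandas 2.3.3, numpy 2.4.6, scipy 1.17.1 and matplotlib 3.10.9 were used for the rest.

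Named peaks are, per complex, at most 4 in each direction by absolute log2 fold change among those called in both hairpins with a mean of at least 50 and no overlap of the 6 hairpin with the 3 NTC libraries, the strongest gene-end peak, at most 3 per direction in each further contrast, at most 2 per direction in each list, Med1, and genes with 4 or more peaks. Other peaks named beside them were chosen after their values were seen. The members and lists were chosen with earlier results of these data known, and the level bands and the split by shared ends were drawn after values were seen. Results for some peaks that meet these rules are not reported here.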

Additional observations from a re-analysis of the deposited data

How the results depend on the processing

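The 4 contrasts were refitted with other pseudocounts, filters, weights and scalings, with a replicate block, and without each library, and member counts were repeated over narrower sets of peaks. Of 55 named results 40 kept their side of the threshold and their direction under all 19 alternative fits; of 1045 checks 41 lost a call, 2 gained one and 10 changed sign. Counts are given as before, at an adjusted p under 0.05. With equal totals, quantile and cyclic loess scaling, decreases with shMed1 #2 numbered 82, 82 and 83 (49 in the report), with shMed1 #4 55, 55 and 56 (35) and with both hairpins 74, 74 and 76 (50), while increases numbered 4, 6 and 6 with shMed1 #4 (11) and 4, 7 and 7 with both (11). For shMed1 #4 against shMed1 #2, quantile and cyclic loess scaling gave 20 and 19 increases (12). Only peaks centred inside a gene gave 26, 21 and 29 decreases with shMed1 #2, shMed1 #4 and both, 7 increases with shMed1 #4 and 5 for shMed1 #4 against shMed1 #2. Only gene-end peaks gave 2, 6 and 6 increases with shMed1 #2, shMed1 #4 and both, and 2 decreases for shMed1 #4 against shMed1 #2. Without peaks at an end of another gene, decreases numbered 32, 22 and 33 and increases with shMed1 #4 7; these sets hold fewer peaks. Leaving out single libraries gave 39 to 57 decreases and 6 to 9 increases with shMed1 #2, 24 to 40 and 5 to 13 with shMed1 #4, 36 to 52 and 6 to 12 with both, and 6 to 7 and 4 to 21 for shMed1 #4 against shMed1 #2. The Med1 peak passed the threshold at -0.16 with equal totals, -0.17 with quantile scaling, -0.19 with cyclic loess scaling and -0.10 with library quality weights, and ran from -0.11 to -0.055 over single libraries left out, passing without shMed1 #2 replicate 1. Ndufs8 turned to -0.023 with quantile scaling. Sdhb turned to -0.0086, -0.032 and -0.041 and Cox8a to -0.064, -0.13 and -0.11 with equal totals, quantile and cyclic loess scaling. Atp5g2 ran from -0.032 to 0.022 over single libraries left out, and turned to 0.022, 0.0098 and 0.0079 without shMed1 #4 replicate 3, NTC replicate 2 and NTC replicate 3. The causes were not tested.

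With the replicate block, decreases and increases numbered 45 and 9 with shMed1 #2, 33 and 9 with shMed1 #4, 49 and 11 with both, and 6 and 9 for shMed1 #4 against shMed1 #2, and the Med1 peak stayed at -0.08. Same-numbered libraries had correlations of -0.084 to 0.033 of their deviations from the group means, and different-numbered ones -0.036 to 0.076. No pairing by number was visible in these values. They cannot show whether same-numbered libraries were prepared together, and the labels do not say. Tests in edgeR and DESeq2 were not run, because no peak with 1 read was there to check the reads worked out. Weak gene-body peaks, down to a mean of 38.3, limit what can be seen there.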
